A study of Mus musculus with 7 samples.

Results

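Histones are the proteins that DNA is wound around in chromatin, and their genes were described here in sorted Paneth cells of mice on 2 diets. Members were all transcript clusters (the array's gene-level probe sets) that name a gene with a histone symbol: the Hist1h to Hist4h symbols, their newer H1, H2A, H2B, H3 and H4 forms, and the variants H2afx, H2afz, H3f3a and H3f3b. This gave 89 of the 35556 clusters in the table, of which 23410 carry a gene symbol. H1f0 was not analysed here, and 1 cluster of H13, a signal peptide peptidase whose symbol has the same form, was set aside. Replication-dependent histones had 54 clusters and variant histones had 33, and 2 mixed clusters name H2A genes of both kinds. Only 43 of the 89 clusters name 1 gene; the other 46 name between 2 and 20 genes and were kept as units. In 3 of those the genes are of different classes: 10408212 names H2bc6 and H1f4, and both mixed clusters also name H3c4.

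Total RNA was measured on 7 Affymetrix arrays, 1 for each sample, in Paneth cells isolated by flow cytometry from mice aged 4 months. The calorie-restricted group (4 arrays, CR1 to CR4) received 60% of the calories of the ad libitum group (3 arrays, AL1 to AL3), which was fed freely, and each diet lasted 4 to 7 weeks. The labels call the arrays biological replicates. Strain, genotype, sex and the number of mice behind each array were not given in the sources used here.

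Replication-dependent histone genes are switched on as cells enter S phase, when new DNA must be packed into nucleosomes. Their mRNAs end in a conserved stem-loop in place of a poly(A) tail, and are degraded when DNA synthesis stops. Variant histones, such as H3.3 and H2A.Z, are made throughout the cell cycle from ordinary polyadenylated mRNAs and replace canonical histones in existing chromatin. Mature Paneth cells do not divide, whereas the crypt cells around them divide rapidly. How the RNA was primed for labelling is not given in the sources used here, so how far mRNAs without a poly(A) tail were captured is unknown.

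Promoter sequences are shown for 10 replication-dependent genes that have a cluster of their own, because the genes that varied most between arrays are among them. Of the 41 genes with a cluster of their own, 35 have a promoter window in RefSeq (GRCm38.p6), and 23 of the 30 replication-dependent genes lie on chromosome 13. Each sequence below holds the 130 bases before the annotated start, read 5′ to 3′ on the gene's strand. Capitals mark 1 motif typical of the gene's class: AAACACA (the H1 box) in H1 genes, the octamer ATTTGCAT or its reverse complement in H2B and H2A genes, and GGTCC (the core of an H4 promoter element) in H4 genes. The printed H1f1 stretch has no AAACACA and so no capitals.
H1f1: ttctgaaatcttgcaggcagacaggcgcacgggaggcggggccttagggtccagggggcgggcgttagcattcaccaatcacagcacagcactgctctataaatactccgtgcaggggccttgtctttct
H1f5: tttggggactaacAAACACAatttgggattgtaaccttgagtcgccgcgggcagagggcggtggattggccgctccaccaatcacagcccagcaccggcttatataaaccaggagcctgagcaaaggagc
H1f2: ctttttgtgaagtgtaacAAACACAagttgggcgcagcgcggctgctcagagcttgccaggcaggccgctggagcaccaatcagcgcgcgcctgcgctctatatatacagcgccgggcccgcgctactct
H2ac4: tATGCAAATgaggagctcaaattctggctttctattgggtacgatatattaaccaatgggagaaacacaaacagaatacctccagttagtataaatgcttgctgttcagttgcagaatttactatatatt
H2bc3: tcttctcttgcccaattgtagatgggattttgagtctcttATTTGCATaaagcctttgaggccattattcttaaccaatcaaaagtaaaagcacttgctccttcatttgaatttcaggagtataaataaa
H2bc14: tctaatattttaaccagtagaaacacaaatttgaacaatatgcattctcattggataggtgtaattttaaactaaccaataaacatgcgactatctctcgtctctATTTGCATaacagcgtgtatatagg
H2bc18: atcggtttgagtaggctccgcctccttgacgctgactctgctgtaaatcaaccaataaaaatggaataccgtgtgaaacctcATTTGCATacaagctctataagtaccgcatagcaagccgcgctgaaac
H4c6: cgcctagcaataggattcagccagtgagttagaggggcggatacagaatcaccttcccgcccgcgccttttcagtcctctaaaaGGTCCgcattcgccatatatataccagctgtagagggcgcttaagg
H4c3: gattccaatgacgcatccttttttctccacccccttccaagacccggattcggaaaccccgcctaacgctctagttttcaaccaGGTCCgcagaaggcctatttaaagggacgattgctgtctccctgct
H4c4: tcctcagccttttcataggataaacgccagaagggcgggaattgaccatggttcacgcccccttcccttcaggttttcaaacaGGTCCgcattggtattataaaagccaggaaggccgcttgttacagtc

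These stretches lie at chr13:23763538-23763667 (+ strand) for H1f1, chr13:21780626-21780755 (- strand) for H1f5 and chr13:23738677-23738806 (+ strand) for H1f2. Those of the H2A and H2B genes lie at chr13:23750958-23751087 (+ strand) for H2ac4, chr13:23746604-23746733 (+ strand) for H2bc3, chr13:21721914-21722043 (+ strand) for H2bc14 and chr3:96269570-96269699 (+ strand) for H2bc18. The H4 stretches lie at chr13:23551669-23551798 (- strand) for H4c6, chr13:23698459-23698588 (- strand) for H4c3 and chr13:23581438-23581567 (+ strand) for H4c4. H4c3, H4c4, H2bc14 and H2bc18 were chosen after their values were seen.

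Motifs were searched on both strands of the 250 bases before the start, in 25 replication-dependent windows and in all 32851 windows of the table. The octamer ATTTGCAT, which binds OCT1, was found in 5 of 8 H2B windows and 3 of 4 H2A windows and in 0 of 5 H1, 2 H3 and 6 H4 windows, against 1.60% of all windows. The divergent neighbours H2ac8 and H2bc8 share their octamer, as do H2ac1 and H2bc1, because their windows overlap. AAACACA was found in 4 of 5 H1, 2 of 4 H2A and 2 of 8 H2B windows and in 0 of 2 H3 and 6 H4 windows, against 6.25% of all; 1 of the 4 somatic variant windows also held it. The printed H2ac4 and H2bc14 stretches hold it in lower case. GGTCC occurred in all 6 H4 windows, but also in 39.8% of all windows. In a stretch chosen after the matches were seen, with the first base 60 to 40 bases before the start, it was found in 4 of 6 H4 windows and 4.50% of all. The general elements CCAAT and TATAAA were found in 20 and 15 of the 25 windows (80.0% and 60.0%), against 33.8% and 12.4% of all. None of the 4 somatic variant windows held the octamer or TATAAA, and 3 of the 4 held CCAAT. A match is a run of letters and was not shown to be bound.

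Values are on the log2 scale as deposited, and a positive difference means a higher mean under calorie restriction. Array medians ran from 7.24 to 7.44, and correlations between arrays, taken across clusters, from 0.955 to 0.994. All 12 Paneth markers had means above the filter level of 6.79 (the 40th percentile of all clusters), and the antimicrobial lysozyme gene Lyz1 lay between 14.26 and 14.34 on every array. The highest values of any cluster on the arrays were 14.60 to 14.67. The Paneth list had array means of 12.66 to 13.01 under calorie restriction and 12.90 to 13.20 under ad libitum feeding. Of its genes, 0 were called (limma) and 1 had an unadjusted p below 0.05, Mptx1, with a difference of -1.42 ± 0.44 (SE). All 12 differences were negative, with a median of -0.064, against 7095 negative of all 15526 clusters tested. Relative to each marker's mean over the arrays, the median was highest in AL1 (0.12) and lowest in CR4 (-0.19). Markers of other cells also differed between arrays. The 17 enterocyte markers tested had array means of 11.85 to 12.07 under calorie restriction and 10.46 to 11.14 under ad libitum feeding, with 6 called higher. No gene of the other lists was called. Calls over all the lists together numbered 0 without CR1, 1 without CR2, 1 without CR3 and 3 without CR4. They numbered 5 without AL1, 6 without AL2 and 6 without AL3. The 29 proliferation markers tested had array means of 9.47 to 10.28 and 8.98 to 10.12, with 0 called and 0 at an unadjusted p below 0.05. AL1 stands apart in the proliferation markers, where it was the lowest array in 28 of 29.

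No histone cluster was called higher or lower under calorie restriction. Of the 89 clusters, 76 had a mean at or above the filter level and were tested: 48 replication-dependent, 2 mixed and 26 variant. The test was limma's moderated test over all 15526 named clusters above that level, of which 93 (0.599%) were called at an adjusted p below 0.05; that number was 0 without CR1, 13 without CR2, 14 without CR3 and 34 without AL2. At an unadjusted p below 0.05, limma found 0 of the 76 histone clusters, against 8.93% of all clusters tested, and the smallest adjusted p of a histone cluster was 0.690. The groups did not overlap in 4 of the 76, all germ line H2A.L clusters that were lower, against 9.91% of all clusters tested. The number of arrays limits the precision, and a p that misses the threshold does not show that the diets gave equal levels. In sorted cells measured in bulk, fewer cells of a type and less RNA for each cell cannot be told apart.

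The median difference over the 48 replication-dependent clusters was 0.070, with 41 positive and 7 negative. Over all 15526 clusters tested it was 0.014, with 8431 positive and 7095 negative. The replication-dependent median was 0.080 after quantile normalization and 0.16 after median centring of arrays, which moved the median of all clusters from 0.014 to 0.10. By class, the medians were 0.23 for H1 (3 clusters), 0.16 for H2A (3), 0.091 for H2B (17), 0.070 for H3 (11) and 0.0041 for H4 (13). The 48 include the germ line genes H2ac1 and H2bc1 and the transcribed H2B pseudogene H2bu1-ps. Over the 26 variant clusters the median was -0.017, and it was 0.0070 after quantile normalization and 0.070 after median centring of arrays. The 11 somatic variant clusters had a median of 0.077, with all 11 positive on the deposited scale; 8 of the 11 were positive after quantile normalization (median 0.048) and 8 without AL1 (median 0.050). The 15 germ line clusters had a median of -0.10, with 14 negative; 8 of the 15 were negative after quantile normalization (median -0.011) and 10 after median centring (median -0.018). These signs thus depended on the scaling and, for the somatic variants, also on AL1. The sign of the replication-dependent median rested on single arrays: it was -0.12 without AL1, with 4 positive, -0.015 without CR4, with 19 positive, and -0.095 with array weights, with 7 positive.

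**Figure D1:**
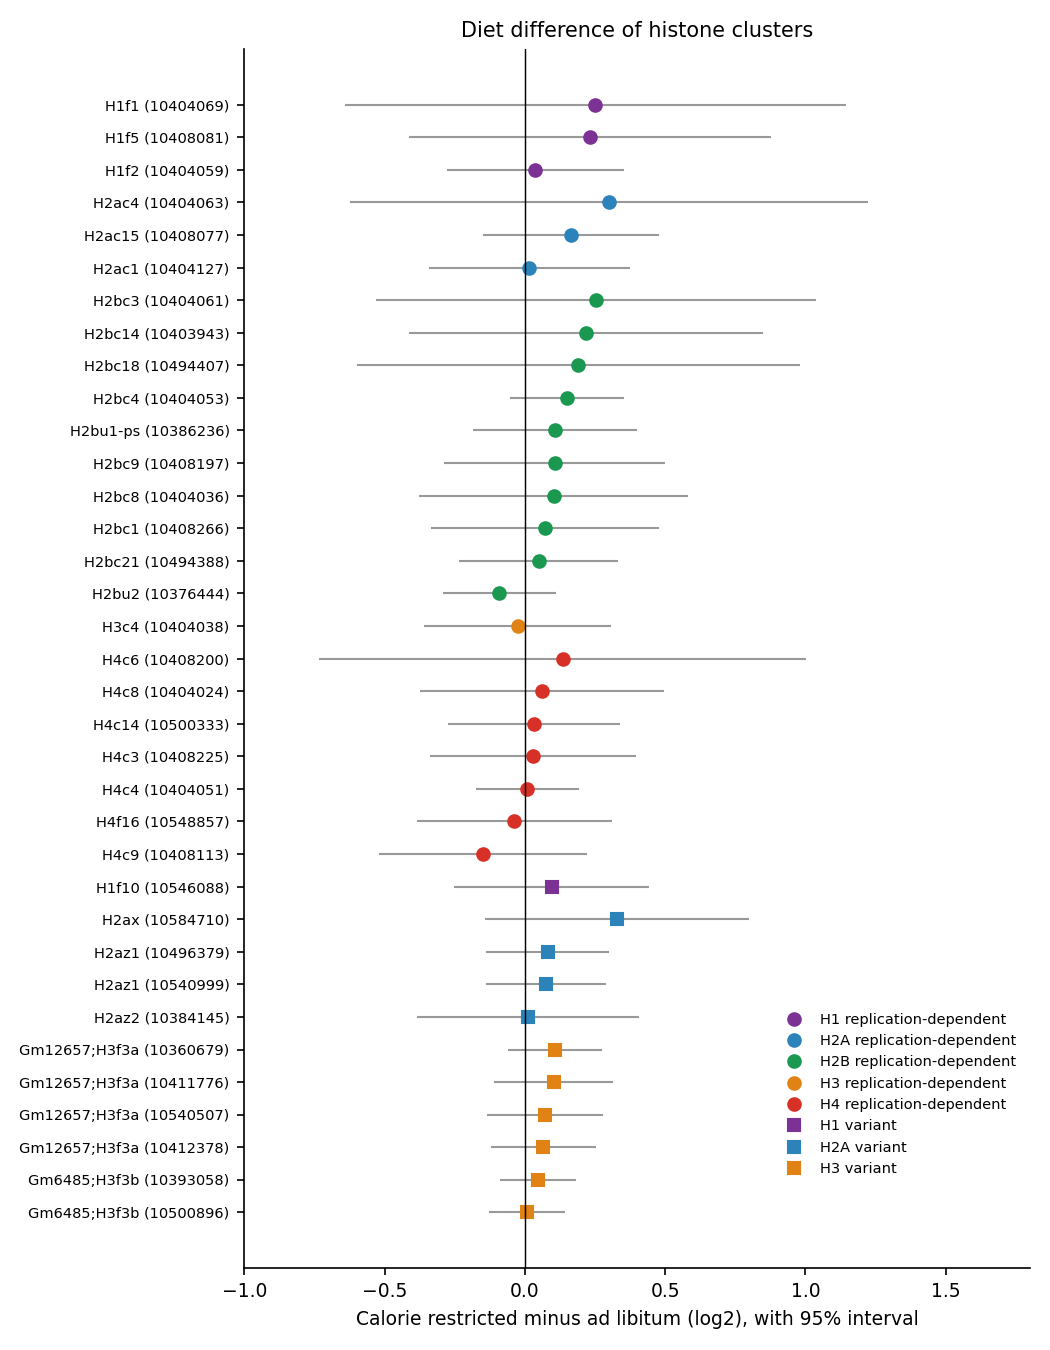
Diet difference (calorie restricted minus ad libitum, log2) of the 24 tested replication-dependent clusters with 1 symbol (circles) and the 11 somatic variant clusters (squares), coloured by histone class, with 95% intervals from the limma fit. Every interval includes 0, and the widest belong to H2ac4, H1f1, H4c6, H2bc18 and H2bc3.

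In the replication-dependent clusters, arrays of the same diet differed by more than the diets did. AL1 was the lowest array in 42 of 48 (87.5%), against 24.0% of all clusters tested. CR4 or AL3, 1 array of each diet, was the highest in 44 of 48 (91.7%), against 28.0% of all. Relative to each cluster's mean, the median deviation was -0.39 in AL1, 0.05 in AL2, 0.22 in AL3, 0.05 in CR1, -0.07 in CR2, -0.10 in CR3 and 0.26 in CR4. The ad libitum arrays thus spanned a wider range than the calorie-restricted ones and enclosed all but CR4. Many of these clusters can bind RNA of the same genes, so the 48 are not independent: 11 of the 89 clusters share all 7 values with another. Among the 24 with 1 symbol, AL1 was lowest in 19 and CR4 or AL3 highest in 20.

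**Figure D2:**
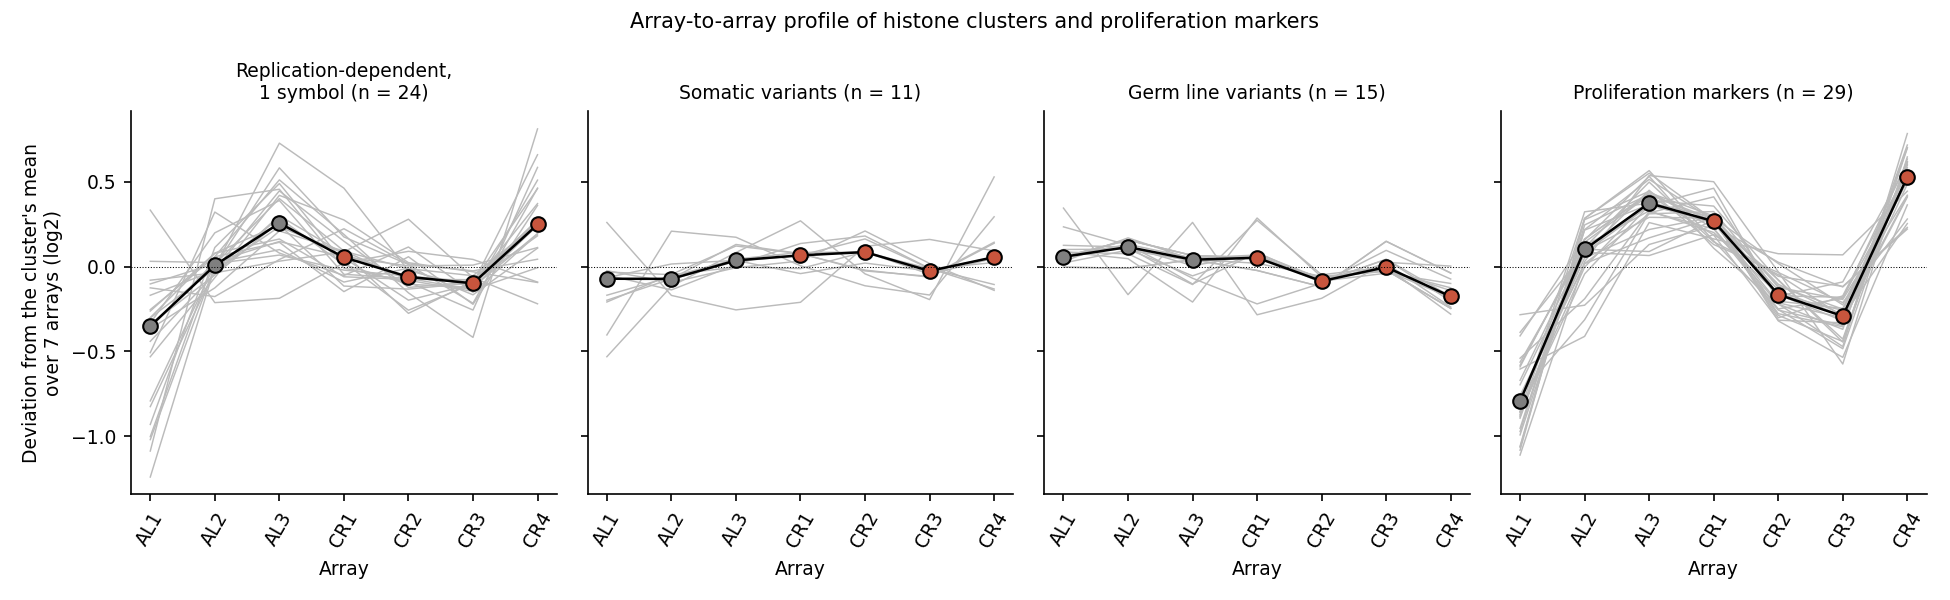
Deviation of each cluster from its own mean over 7 arrays (log2), for the replication-dependent clusters with 1 symbol, somatic variants, germ line variants and proliferation markers that were tested; grey lines are clusters or marker genes, circles the median of each array (grey ad libitum, red calorie restricted), and the lines join arrays that have no order. In the first panel the medians run from -0.35 in AL1 to 0.25 in CR4 and 0.26 in AL3. In the last they run from -0.79 in AL1 to 0.37 in AL3 and 0.53 in CR4. Those of the 11 somatic variants, 6 of them H3.3 clusters, stay between -0.07 and 0.09. The 4 somatic H2A variant clusters among them had medians of -0.31 in AL1, 0.13 in AL3 and 0.22 in CR4.

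Proliferation markers, the genes of DNA replication and mitosis, had the same order of arrays. Their median deviation was -0.79 in AL1, -0.29 in CR3, -0.16 in CR2, 0.10 in AL2, 0.27 in CR1, 0.37 in AL3 and 0.53 in CR4. Pcna, the sliding clamp of DNA polymerase, was at 12.21, 12.00, 11.85 and 12.20 in CR1 to CR4 and at 11.69, 11.74 and 12.10 in AL1 to AL3. Rrm2, a subunit of the enzyme that makes deoxyribonucleotides, was at 10.38, 9.80, 9.88 and 10.58 in the CR arrays against 9.22, 9.66 and 10.29 in the AL arrays. Both were lowest in AL1, and their groups overlapped. The part of proliferating cells in the histone values was not tested. The enterocyte markers moved differently, with all 4 calorie-restricted arrays above all 3 ad libitum ones in the list's mean.

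Linker histones of the H1 class bind the DNA between nucleosomes, and 3 of their 5 replication-dependent clusters with a class of their own were tested. H1f1 (cluster 10404069) was at 11.75, 11.41, 11.14 and 12.37 in CR1 to CR4 and 10.56, 11.62 and 12.07 in AL1 to AL3. Its highest and lowest arrays were CR4 and AL1, 3.52-fold apart, and the groups overlapped. Its diet means were 11.67 ± 0.53 (SD, n = 4) against 11.42 ± 0.78 (SD, n = 3), a difference of 0.25 ± 0.39 (SE; 95% interval -0.64 to 1.14; limma adjusted p = 0.906). H1f5 (10408081) was at 11.49, 11.22, 11.25 and 11.80 under calorie restriction and 10.52, 11.32 and 11.79 under ad libitum feeding. AL1 was again lowest, and CR4 and AL3 were nearly equal at the top. The H1f5 difference was 0.23 ± 0.28 (SE; limma adjusted p = 0.876). Without AL1, the differences turned to -0.18 for H1f1 and -0.11 for H1f5.

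H1f2, a linker histone gene whose mRNA is also known in polyadenylated form, had another array order. Whether the form of the mRNA plays a part in the array order was not tested. The H1f2 cluster 10404059 was at 11.07, 11.14, 11.09 and 10.96 in CR1 to CR4 and 11.38, 10.84 and 10.86 in AL1 to AL3. AL1 was its highest array and AL2 its lowest, and the 4 calorie-restricted values lay between them, with an SD of 0.08. The difference was 0.04 ± 0.14 (SE; limma adjusted p = 0.964). H1f3, with means of 6.08 ± 0.11 (SD, n = 4) against 6.17 ± 0.25 (SD, n = 3), and the testis gene H1f6, with means of 6.28 ± 0.16 (SD, n = 4) against 6.39 ± 0.04 (SD, n = 3), were below the filter level and untested. A cluster shared by H2bc6 and H1f4 (10408212) was at 8.16, 8.09, 7.99 and 8.15 in the CR arrays against 8.004, 8.08 and 8.20 in the AL arrays, a difference of 0.00 ± 0.09 (SE).

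H2A and H2B pair as a dimer in the nucleosome, and many of their genes lie side by side and share a promoter region. H2ac4 (10404063), whose octamer is printed above, had the widest range of any histone cluster tested. It was at 10.37, 9.89, 9.79 and 10.11 in CR1 to CR4 and 8.67, 9.91 and 10.64 in AL1 to AL3, 3.91-fold between AL1 and AL3. Both extremes were thus ad libitum arrays, with all calorie-restricted values between them. The difference was 0.30 ± 0.40 (SE; 95% interval -0.62 to 1.22; limma adjusted p = 0.889), and -0.23 without AL1. H2ac15 (10408077) was at 12.72, 12.61, 12.57 and 12.88 in the CR arrays against 12.26, 12.50 and 12.84 in the AL arrays, with a difference of 0.16 ± 0.14 (SE; limma adjusted p = 0.830). H2ac1 (10404127), a germ line gene, was at 9.09, 8.97, 8.96 and 9.32 in the CR arrays against 8.78, 9.07 and 9.36 in the AL arrays, a difference of 0.02 ± 0.16 (SE). Its sequence resembles other H2A genes, so which genes' RNA it measured is uncertain. H2ac8 was below the filter level, with means of 5.52 ± 0.10 (SD, n = 4) against 5.49 ± 0.15 (SD, n = 3).

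Among the H2B clusters, H2bc3 (10404061) was at 11.05, 10.88, 10.66 and 11.33 in CR1 to CR4 and 9.85, 10.87 and 11.45 in AL1 to AL3. AL1 and AL3 were again its lowest and highest arrays, 3.04-fold apart. Its difference was 0.25 ± 0.34 (SE; limma adjusted p = 0.889), and -0.18 without AL1. H2bc14 (10403943) and H2bc18 (10494407), with the octamer too, ranged 2.47-fold and 3.01-fold over the 7 arrays, with AL1 lowest and CR4 highest in both.

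H2bc4 (10404053), the H2B cluster with the smallest p, varied less. It was at 11.82, 11.62, 11.58 and 11.64 in CR1 to CR4 and 11.48, 11.42 and 11.64 in AL1 to AL3, so AL2 was lowest, CR1 highest and the groups overlapped. Its means were 11.67 ± 0.11 (SD, n = 4) against 11.51 ± 0.11 (SD, n = 3), a difference of 0.15 ± 0.09 (SE; 95% interval -0.05 to 0.36; limma adjusted p = 0.712). H2bc21 (10494388), named after its values were seen because its mRNA is known in polyadenylated form, was at 7.86, 8.06, 7.71 and 7.56 in the CR arrays against 7.70, 7.74 and 7.81 in the AL arrays. CR2 was its highest array and CR4 its lowest, and the part of the mRNA's form in this was not tested. H2bu2 (10376444), on chromosome 11, was at 7.30, 7.38, 7.22 and 7.50 in the CR arrays against 7.42, 7.41 and 7.49 in the AL arrays, with a difference of -0.09 ± 0.09 (SE; limma adjusted p = 0.848). H2bc22 was below the filter level, with means of 6.77 ± 0.08 (SD, n = 4) against 6.82 ± 0.06 (SD, n = 3).

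**Figure D3:**
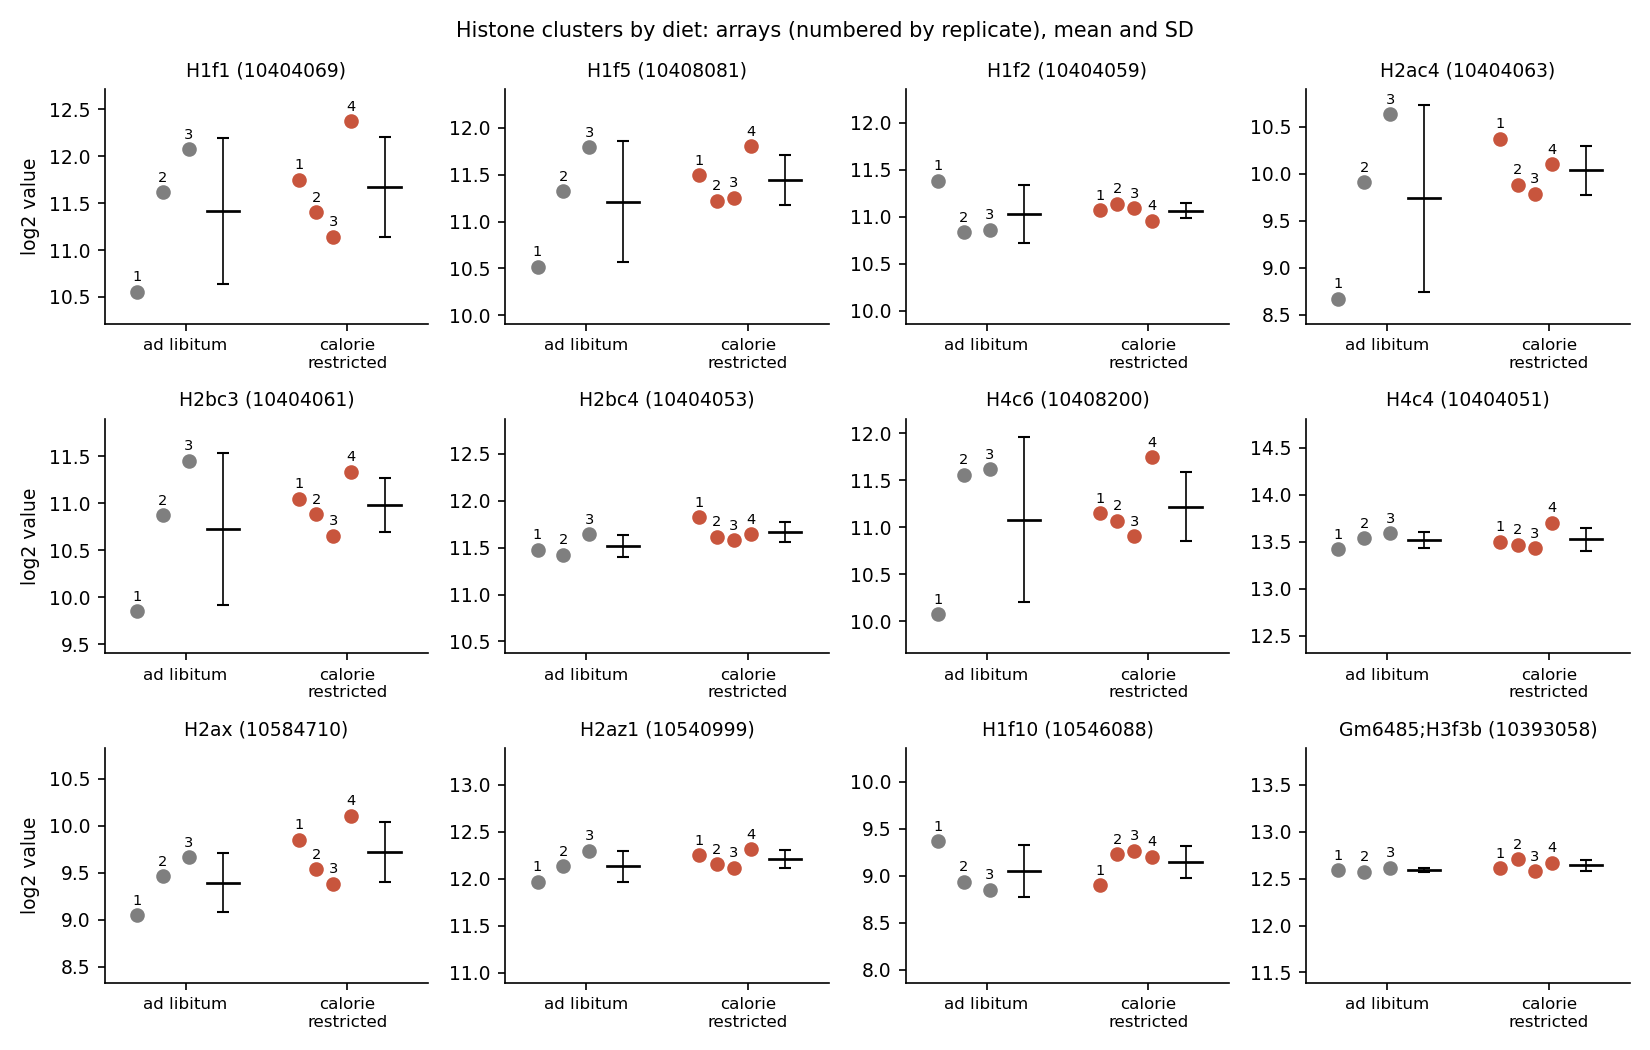
Log2 values of histone clusters on each array (points numbered by replicate, grey ad libitum, red calorie restricted), with the mean and SD of each diet beside them; every panel spans the same number of log2 units but starts at a different level, not at 0. AL1 lies far below the other arrays for H1f1, H1f5, H2ac4, H2bc3 and H4c6, is the highest array for H1f2 and H1f10, and lies among the others for H3f3b.

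H3 forms the core of the nucleosome together with H4, and 10 of its 13 replication-dependent clusters name the same 12 H3 genes. The array pattern was the same in all 10: cluster 10404065, for example, was at 13.75, 13.59, 13.61 and 14.02 in CR1 to CR4 and 13.29, 13.81 and 13.92 in AL1 to AL3. AL1 was lowest and CR4 highest. Over the 10, differences ran from 0.06 to 0.11 with SEs of 0.16 to 0.18. The 1-symbol cluster H3c4 (10404038), named after its values were seen, was at 7.56, 7.21, 7.39 and 7.72 in the CR arrays against 7.31, 7.46 and 7.72 in the AL arrays, with CR2 rather than AL1 the lowest. H3c15, with means of 6.05 ± 0.65 (SD, n = 4) against 5.70 ± 0.11 (SD, n = 3), and H3c7, with means of 5.42 ± 0.13 (SD, n = 4) against 5.44 ± 0.13 (SD, n = 3), were below the filter level.

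H4 had 13 clusters, all tested, and AL1 was the lowest array in every one. H4c6 (10408200) was at 11.15, 11.07, 10.90 and 11.74 in CR1 to CR4 and 10.07, 11.56 and 11.62 in AL1 to AL3, 3.19-fold between AL1 and CR4. AL2 and AL3 both exceeded CR1 to CR3, so that without AL1 the difference of 0.13 ± 0.38 (SE; limma adjusted p = 0.951) turned to -0.37. H4c4 (10404051), with GGTCC at nearly the same distance from its start, was at 13.50, 13.47, 13.43 and 13.70 in the CR arrays against 13.42, 13.54 and 13.59 in the AL arrays, a range of 1.22-fold. Its mean of 13.52 is nearer than that of H4c6 (11.16) to the highest values of any cluster (14.60 to 14.67). The part of the level in these ranges was not tested. H4c9 (10408113) had the lowest difference of the replication-dependent clusters: it was at 7.77, 7.74, 7.67 and 7.80 in the CR arrays against 7.48, 8.01 and 8.20 in the AL arrays, a difference of -0.15 ± 0.16 (SE; limma adjusted p = 0.865). AL2 and AL3 were above all calorie-restricted arrays there and AL1 below them. The 5 clusters that name 11 H4 genes had differences between -0.01 and 0.01.

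The clusters of several H2B genes behaved alike. All 7 name 14 or 15 H2B genes, and cluster 10403980 was at 13.29, 13.19, 13.14 and 13.46 in CR1 to CR4 and 12.82, 13.27 and 13.46 in AL1 to AL3. AL1 was lowest in each of the 7. The mixed clusters 10409220 and 10494386, which name 20 and 19 genes including H2ax, differed by 0.07 ± 0.14 and 0.08 ± 0.13 (SE). AL1 was lowest and CR4 highest in both.

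How far arrays of the same diet lay apart was measured by the SD within diets. Its median was 0.24 over the 48, 0.15 over all clusters tested, 0.12 over the somatic variants and 0.10 over the germ line ones. Above the 90th percentile of all clusters (0.33) lay 7 of the 48 replication-dependent clusters (14.6%) and 0 of the 26 variant ones. Of all clusters tested, 10% lie above it by definition, and of the 76 histone clusters 9.21%. The 7 were H2ac4 (0.66), H1f1 (0.64), H4c6 (0.62), H2bc18 (0.56), H2bc3 (0.56), H1f5 (0.46) and H2bc14 (0.45), each a cluster of 1 gene. All 7 had AL1 as the lowest array, and without AL1 their ranges shrank from between 1.29 and 1.97 to between 0.58 and 1.23 log2 units. No test of this difference in spread was run. The 7 had means between 8.97 and 11.56, whereas the 24 replication-dependent clusters with several symbols had array means of 12.56 to 13.18. The part of the level in the spread was not tested.

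**Figure D4:**
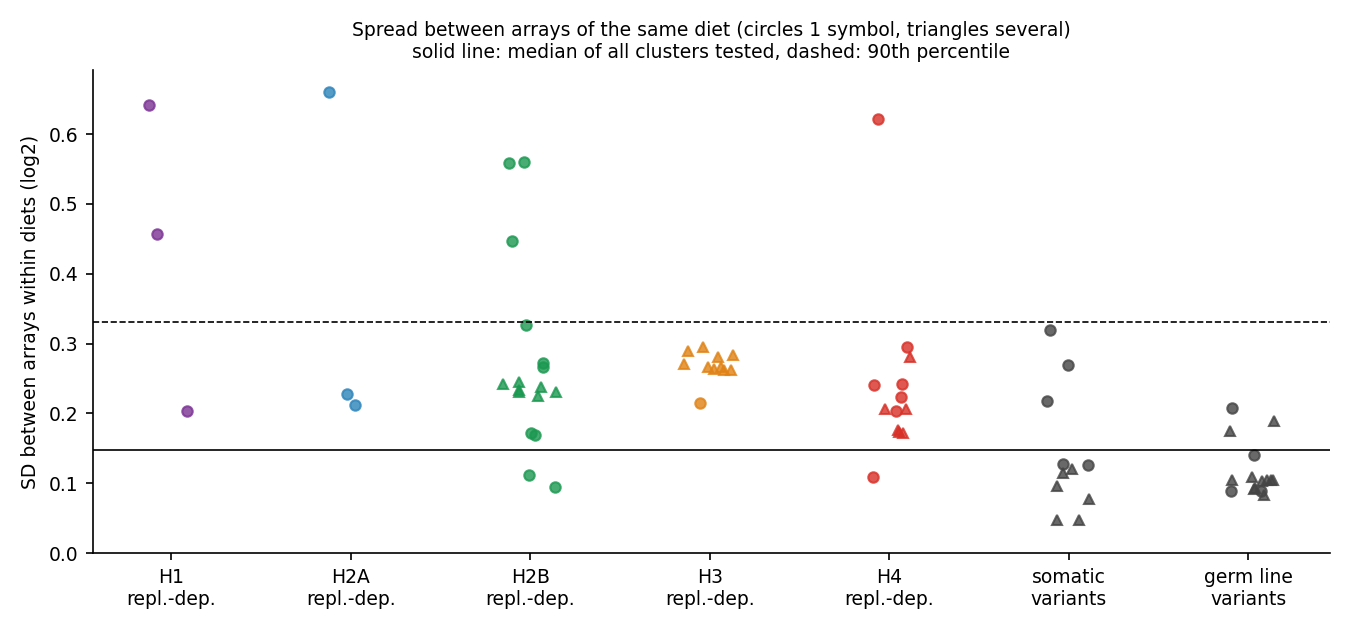
SD between arrays within diets (log2) of each tested histone cluster, by class (circles for clusters of 1 symbol, triangles for several; the mixed clusters and the cluster of H2bc6 and H1f4 are not drawn), with the median of all clusters tested (solid line) and their 90th percentile (dashed line). Replication-dependent clusters reach 0.66, and 7 of the 48 tested (14.6%) lie above the dashed line, against 10% of all clusters tested. All variant clusters lie at or below 0.32.

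Of the somatic variants, H2ax had the largest positive difference of the 76 histone clusters tested on the deposited scale. H2ax marks DNA breaks when phosphorylated, and its mRNA exists both with a stem-loop end and with a poly(A) tail. Cluster 10584710 was at 9.85, 9.54, 9.38 and 10.11 in CR1 to CR4 and 9.05, 9.46 and 9.66 in AL1 to AL3. AL1 was lowest and CR4 highest, as in most replication-dependent clusters, and CR2 and CR3 lay within the ad libitum range. Its means were 9.72 ± 0.32 (SD, n = 4) against 9.39 ± 0.31 (SD, n = 3), a difference of 0.33 ± 0.20 (SE; 95% interval -0.14 to 0.80; limma adjusted p = 0.734), and 0.16 without AL1.

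H2A.Z, a variant found at promoters, is encoded by H2az1 and H2az2. H2az1 had 2 clusters: 10540999 was at 12.25, 12.16, 12.12 and 12.32 in CR1 to CR4 and 11.97, 12.13 and 12.30 in AL1 to AL3, and 10496379 was at 11.81, 11.71, 11.68 and 11.88 in the CR arrays against 11.54, 11.66 and 11.87 in the AL arrays. The 2 clusters of the gene had differences of 0.08 ± 0.09 and 0.08 ± 0.10 (SE). H2az2 (10384145) was at 11.29, 11.17, 11.12 and 11.58 in the CR arrays against 10.88, 11.49 and 11.46 in the AL arrays, a difference of 0.01 ± 0.17 (SE; limma adjusted p = 0.993). In all 4 somatic H2A variant clusters AL1 was lowest and CR4 highest.

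H3.3, the H3 variant that is placed in chromatin outside S phase, is encoded by H3f3a and H3f3b. The 2 H3f3b clusters also name Gm6485. Cluster 10393058 was at 12.61, 12.71, 12.58 and 12.67 in CR1 to CR4 and 12.59, 12.57 and 12.62 in AL1 to AL3, and 10500896 was at 12.58, 12.64, 12.59 and 12.68 in the CR arrays against 12.55, 12.63 and 12.66 in the AL arrays. Their ranges were 1.10-fold and 1.09-fold over all 7 arrays, with differences of 0.05 ± 0.06 and 0.01 ± 0.06 (SE). The 4 tested H3f3a clusters also name Gm12657 and differed by 0.11 ± 0.07 (10360679), 0.10 ± 0.09 (10411776), 0.07 ± 0.09 (10540507) and 0.07 ± 0.08 (10412378). Cluster 10360679 was at 11.93, 11.93, 11.83 and 11.87 in the CR arrays against 11.68, 11.79 and 11.89 in the AL arrays, so the groups overlapped, with AL1 lowest. For the 6 H3.3 clusters the median deviation stayed between -0.07 and 0.13 in every array. The limma intervals of the 2 H3f3b clusters ran from -0.09 to 0.18 and from -0.13 to 0.14.

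H1f10, a linker histone variant found in many tissues, was at 8.90, 9.23, 9.27 and 9.20 in CR1 to CR4 and 9.37, 8.94 and 8.85 in AL1 to AL3 (cluster 10546088). Its highest array was AL1 and its lowest AL3; AL1 was also the highest array of H1f2. The difference was 0.10 ± 0.15 (SE; limma adjusted p = 0.909), and 0.25 without AL1. The 9 enteroendocrine markers, genes of hormone-secreting gut cells, had array means of 10.40, 11.15, 11.13 and 10.38 in CR1 to CR4 and 10.80, 10.31 and 10.30 in AL1 to AL3. AL1, CR2 and CR3 were thus high in the mean of these markers and, with CR4, in H1f10. In 3 of the 9 markers, however, AL1 was the lowest array, and each of the 9 had a calorie-restricted array as its highest. The Paneth markers also had their highest median deviation in AL1 (0.12). It was 0.06 in AL2, -0.02 in AL3, -0.02 in CR1, 0.05 in CR2, 0.04 in CR3 and -0.19 in CR4. The part of either cell type in the H1f10 and H1f2 values was not tested.

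Germ line variants replace canonical histones in spermatids or oocytes, and 15 of their 21 clusters were tested. All 15 had means between 6.82 and 7.69, close to the filter level of 6.79, and no detection call was used, so signal above background was not shown. Their median deviation ran from -0.18 in CR4 to 0.12 in AL2, with 0.06 in AL1. The H2A.L gene H2al2a (10480317) had the most negative difference: it was at 7.37, 7.47, 7.68 and 7.66 in CR1 to CR4 and 8.001, 7.49 and 7.92 in AL1 to AL3. The groups overlapped, and the difference was -0.26 ± 0.14 (SE; limma adjusted p = 0.701). H1f7, a spermatid linker histone, was at 7.47, 7.59, 7.79 and 7.62 in the CR arrays against 7.93, 7.82 and 7.62 in the AL arrays, a difference of -0.17 ± 0.11 (SE; limma adjusted p = 0.742). The 2 clusters of H2ab1 hold identical values and differed by -0.02 ± 0.08 (SE).

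The other germ line clusters tested name 8 to 13 H2al1 genes each. In 4 of these 11 the groups did not overlap, 3 of them with identical values. Cluster 10598656 was at 7.18, 7.06, 7.11 and 6.88 in CR1 to CR4 and 7.19, 7.29 and 7.19 in AL1 to AL3, a difference of -0.16 ± 0.09 (SE; limma adjusted p = 0.690), and 10598654 differed by -0.14 ± 0.08 (SE; limma adjusted p = 0.695). Cluster 10598763 had the only positive difference of the 15 germ line clusters on the deposited scale, 0.04 ± 0.12 (SE). Below the filter level were H1f8, H2al3, H2bl1, the H2al2b and H2al2c pair of clusters, and 1 H2al1 cluster. The 1-symbol H3f3a cluster 10407809 was also below it, with means of 6.12 ± 0.08 (SD, n = 4) against 6.01 ± 0.11 (SD, n = 3).

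Genes that make, process and carry histones were described from lists of their own. Of the 15 genes of histone gene control and mRNA 3′ end processing tested, 0 were called and 1 had an unadjusted p below 0.05 (limma), with a median difference of 0.087 and 14 positive. Lsm10, a subunit of the U7 particle that cuts the 3′ end of histone pre-mRNAs, had the smallest p. It was at 8.66, 8.61, 8.50 and 8.48 in CR1 to CR4 and 8.22, 8.26 and 8.17 in AL1 to AL3, so the groups did not overlap, and the difference was 0.35 ± 0.09 (SE; limma adjusted p = 0.197). Slbp, which binds the stem-loop, differed by 0.04 ± 0.09, and Npat, the coactivator of replication-dependent histone genes, by 0.08 ± 0.09 (SE); both were named after their values were seen. AL1 was the lowest array in 11 of the 15, against 24.0% of all clusters tested. Of all 15526 clusters, 8431 had a positive difference, and the signs of this list without AL1 are not given.

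Among 24 histone chaperones and exchange factors tested, 0 were called and 1 had an unadjusted p below 0.05 (limma), with a median difference of 0.056 and 17 positive. Rbbp7, a subunit of chromatin assembly and deacetylase complexes, was at 11.49, 11.41, 11.36 and 11.50 in CR1 to CR4 and 11.06, 11.12 and 11.35 in AL1 to AL3, and the groups did not overlap. Its difference was 0.26 ± 0.09 (SE; limma adjusted p = 0.410). Anp32e, which removes H2A.Z, differed by 0.22 ± 0.14 and Hira, which places H3.3, by 0.19 ± 0.12 (SE). AL1 was the lowest array in 16 of the 24, against 24.0% of all clusters tested, and the signs of this list without AL1 are not given. Histone variants outside the symbol rule were few: 3 were tested, with 0 called and 0 at an unadjusted p below 0.05 (limma). Cenpa, the H3 variant of centromeres, was at 9.46, 8.97, 8.73 and 9.75 in the CR arrays against 8.53, 9.44 and 9.64 in the AL arrays, with AL1 lowest and CR4 highest. Macroh2a1, a variant linked to silent chromatin, was at 11.30, 11.01, 11.04 and 11.23 in the CR arrays against 11.06, 11.37 and 11.35 in the AL arrays, a difference of -0.12 ± 0.11 (SE).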

How the data were processed

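Log2 values were deposited, 1 for each transcript cluster and array; the submitters' processing notes name Affymetrix Expression Console. Its algorithm, normalization and version were not given in the sources used here, and the log2 scale was inferred from values between 2.97 and 14.67. They were used without further scaling. Per the labels' protocols, 10 ug of RNA from sorted Paneth cells was labelled for each array. Clusters were named from the platform annotation, with older symbols matched through a RefSeq gene table. The test of diet was limma's moderated test (lmFit, then eBayes with a trend on intensity; limma version 3.58.1 in R version 4.3.3) over the 15526 named clusters with a mean at or above the 40th percentile of all clusters, and Benjamini-Hochberg adjustment over them. The fit was checked on simulated data. The level of 1 cluster was never set against that of another.

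Named were all variant clusters, the 3 clusters with the highest mean and the 2 with the smallest p in each replication-dependent class, the 4 largest differences in each direction, and in each companion list the 3 genes with the smallest p and the 2 with the highest mean. Some others are said to be chosen after their values were seen. Also named outside this rule, with values known, were the untested replication-dependent clusters, the mixed clusters, the cluster of H2bc6 and H1f4, H2bc1 and H2bu1-ps. The members and lists were chosen with earlier results of these data known. Alternatives were quantile normalization, median centring, filtering at the 60th percentile or not at all, clusters of 1 symbol only, named and unnamed clusters together, eBayes without the trend or robust, array weights, a block for the replicate number, and fits without each array in turn. Motifs and figures were made with Python (version 3.11.15), pandas (version 2.3.3) and matplotlib (version 3.10.9), and promoter windows come from RefSeq.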

Additional observations from a re-analysis of the deposited data

Results flagged for a closer look

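In 3 of the 69 sets of calorie-restricted values examined, 1 array lay further from the other 3 than Dixon's critical value for 4 arrays allows; chance does this in about 1 in 20 sets. The H3f3a cluster of 1 symbol (10407809) was at 6.24 in CR1, above the other 3 arrays, at a level below the filter. In 2 clusters of the same 11 H4 genes, CR4 was above the other 3 calorie-restricted arrays, at 13.90 (10404067) and 13.88 (10408074).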

How the results depend on the processing

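No histone cluster was called under any alternative run. At an unadjusted p below 0.05, 12 histone clusters were found with array weights, 2 with no filter, 1 with median centring, 0 to 2 when 1 array was left out, and 0 under the other alternatives. The replication-dependent median ran from -0.118 (without AL1) to 0.199 (without AL3) over the fits that leave out 1 array, and was -0.0945 with array weights. The variant median was 0.0772 with the filter at the 60th percentile, which leaves fewer clusters tested: 11 somatic and 0 germ line variant ones. Those 11 somatic clusters had the same median, 0.0772, with the filter at the 40th percentile. After median centring the variant median was 0.0698, and all clusters tested had a median of 0.101, beside 0.0145 on the deposited scale. The variant median ran from -0.0531 to 0.00623 when 1 array was left out, and the cause of that range was not tested. Of the 48 named clusters tested, 20 changed sign without AL1, 17 with array weights, 12 with quantile normalization, 11 without CR4 and 5 with median centring. Calls in the companion lists were 2 with named and unnamed clusters together, 25 with array weights, and 0 to 6 when 1 array was left out. With the replicate number as a block, these calls were 0, the replication-dependent median was -0.0152 and the variant median -0.00903. CR4 has no partner and adds nothing there, so the estimates equal those without CR4. Arrays with the same number did not deviate together (correlations of -0.0859, -0.286 and -0.558 across clusters), and the numbers were not taken to pair the samples. All clusters called numbered 51 with quantile normalization, 56 with the stricter filter, 36 with unnamed clusters included, 2058 with array weights and 0 with the block, beside 93. No detection call was used, so low levels have no stated background.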
